A study of Homo sapiens with 8 samples.

Results

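The mRNAs of 10 plasma membrane amino acid transporters that are known targets or partners of the amino acid stress response were followed in human cardiac fibroblasts after knockdown of EIF4G2. The genes were SLC7A11, SLC3A2, SLC7A5, SLC7A6, SLC7A1, SLC1A4, SLC1A5, SLC38A1, SLC38A2 and SLC6A9, taken by symbol from a table of counts for 59385 gene symbols. All 10 were among the 16228 genes that passed the filter on low counts. They were chosen by their place in the amino acid stress response and with earlier results of these data known, in which the measured level of SLC7A11 in total RNA stood out between the hairpins. The comparison of hairpins in total RNA is therefore given as a description with no p-value for single transporters, and none of the values that follow is independent evidence for the choice.

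The cells were IHCF, an immortalized line of human cardiac fibroblasts, infected with a lentivirus that carried a short hairpin RNA against EIF4G2 (knockdown) or a scrambled hairpin without a target (scramble). EIF4G2, also called DAP5, is a translation scaffold related to EIF4G1 that lacks the binding site for the cap-binding protein. The growth medium held serum at 10%, non-essential amino acids at 1% and insulin at 5 µg/ml. Cells of both hairpins were starved of serum for 6 h or longer and then received TGF-beta for 24 h, so every group had been given the cytokine. The groups were knockdown polysomal, scramble polysomal, knockdown total and scramble total RNA, with 2 libraries each that the labels call biological replicates. Whether they were grown as separate cultures is not stated, and the p-values reflect only the spread between libraries, which may be technical. The labels name 1 hairpin against EIF4G2 and no rescue, and loss of EIF4G2 and any other effect of that hairpin cannot be told apart.

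Amino acid shortage and other stresses lead to phosphorylation of the initiation factor eIF2, which lowers general translation while raising translation of the transcription factor ATF4. ATF4 binds C/EBP-ATF response elements and switches on amino acid transporters, synthesis enzymes and tRNA synthetases, so that amino acid supply is restored. In fibroblasts this supply also feeds collagen, which is rich in glycine and proline. SLC3A2 (the heavy chain 4F2hc or CD98) carries several light chains of the SLC7 family to the cell surface, among them SLC7A5, SLC7A6 and SLC7A11. SLC7A5 (LAT1) exchanges large neutral amino acids such as leucine, and SLC7A6 (y+LAT2) exchanges cationic for neutral ones. SLC7A11 (xCT) imports cystine, the source of cysteine for glutathione, in exchange for glutamate. SLC7A1 (CAT1) takes up arginine and lysine without a heavy chain. SLC1A4 (ASCT1) and SLC1A5 (ASCT2) exchange small neutral amino acids, glutamine among them for SLC1A5, SLC38A1 (SNAT1) and SLC38A2 (SNAT2) take up glutamine, alanine and related amino acids with sodium, and SLC6A9 (GlyT1) takes up glycine.

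Of the 10 genes, 9 had promoters in the RefSeq table of GRCh38.p14, with 15 promoters in all (SLC7A11 has no entry), each from 250 bases before to 50 bases after a transcription start. The core of the C/EBP-ATF response element, TGATGNAA on the strand of the gene or TTNCATCA for its opposite strand, was found in 5 of these 15 promoters, each of another gene, and in 3.62% of the 35116 promoters of the table. The matches were in SLC1A4 (chr2:64989381-64989410, plus strand), SLC3A2 (chr11:62881725-62881748, plus strand), SLC38A1 (chr12:46266502-46266531, minus strand), SLC7A1 (chr13:29595663-29595692, minus strand) and SLC1A5 (chr19:46784893-46784922, minus strand). For SLC1A4, SLC3A2, SLC38A1 and SLC1A5 the match was in 1 of 2 or 3 listed promoters. The stretches are shown 5′ to 3′ on the strand of the gene because this element is the textbook link between ATF4 and these transporters, with the match in capitals.
SLC1A4: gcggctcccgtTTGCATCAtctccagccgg
SLC3A2: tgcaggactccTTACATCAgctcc
SLC38A1: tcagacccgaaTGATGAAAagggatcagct
SLC7A1: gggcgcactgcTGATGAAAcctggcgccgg
SLC1A5: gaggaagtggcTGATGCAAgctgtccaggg

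Counted from the transcription start, these matches began at base −7 in SLC1A4, 38 in SLC3A2, −4 in SLC38A1, 8 in SLC7A1 and −97 in SLC1A5. SLC7A5, SLC7A6, SLC38A2 and SLC6A9 had no match in their windows. The core of the antioxidant response element, TGACNNNGC on either strand, which NRF2 binds, was found in 5 of the 15 promoters, those of SLC3A2, SLC7A5, SLC7A6, SLC7A1 and SLC1A5, and in 13.3% of all promoters. A match of these letters is a description and not a binding site.

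Total counts per library ran from 18043714 to 24590030. EIF4G2 stood at 293.1 and 326.9 CPM (the usual count scaled to the library total times its TMM factor) in knockdown total libraries, against 793.0 and 784.5 CPM in scramble total libraries, and at 243.8 and 334.3 CPM in knockdown polysome libraries, against 874.6 and 876.3 CPM in scramble polysome libraries. The mitochondrial genome supplied 14.5 to 17.5% of the counts of polysome libraries, apart from scramble polysome replicate 1 with 7.12%, and 3.88 to 4.21% of those of total libraries. Of 12 fibroblast markers, 2 were under 1 CPM in total libraries of either hairpin (DCN and FAP). PDGFRA, LUM, POSTN and TCF21 were low there too, at 1.38 to 5.71 CPM. COL1A1 stood at 3770 to 4168 CPM and VIM at 1092 to 1564 CPM in total libraries, the highest of the 12. In polysomal RNA 3 of the 12 were under 1 CPM by mean in knockdown cells and 4 in scramble cells. The 12 summed to 6023 to 6225 CPM in knockdown and 5466.5 to 5558 CPM in scramble total libraries, and to 6274 to 6924 CPM in knockdown and 5990.3 to 6880 CPM in scramble polysome libraries. The keratins KRT8 and KRT18, listed as epithelial markers, stood at 818.8 to 958.4 and 342.2 to 459.5 CPM in total libraries, with EPCAM and CDH1 under 1 CPM. The 6 epithelial markers summed to 1165.5 to 1423 CPM in knockdown and 1365 to 1394 CPM in scramble total libraries, and to 2237 to 2269 CPM in knockdown and 3130 to 3202 CPM in scramble polysome libraries. The 6 mural markers, with ABCC9 at 0 in all libraries, summed to 384.3 to 442.5 CPM in knockdown and 461.2 to 479.0 CPM in scramble total libraries, and to 77.7 to 94.8 CPM in knockdown and 107.1 to 142.8 CPM in scramble polysome libraries. The part of these markers in the results was not tested. The sums for leukocyte markers lay at 1.98 to 7.89 CPM and those for endothelial markers at 12.1 to 19.7 CPM over all libraries, and of 8 cardiomyocyte markers MYH6 and MYH7 had no count in any library.

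Per kilobase of exons, the scale on which genes can be compared, SLC1A5, SLC7A5, SLC38A2 and SLC3A2 were the abundant transporters and SLC7A11 the scarcest, by mean, in every group. In knockdown total RNA SLC1A5 led with 55.1 ± 3.45 CPM per kb (SD, n = 2), followed by SLC7A5 with 40.8 ± 0.589 and SLC38A2 with 39.3 ± 4.07, whose ranges of mean ± SD overlapped. SLC7A1 (11.2 ± 1.68) and SLC38A1 (10.1 ± 1.63) overlapped as well, and SLC7A11 was lowest with 1.05 ± 0.0192. In scramble total RNA the order was SLC38A2 (45.4 ± 0.324 CPM per kb), SLC1A5 (44.7 ± 0.953), SLC7A5 (31.5 ± 0.107), SLC3A2 (24.4 ± 0.324), SLC7A1 (10.4 ± 0.0353), SLC38A1 (9.06 ± 0.280), SLC1A4 (6.89 ± 0.0147), SLC7A6 (2.33 ± 0.113), SLC6A9 (1.22 ± 0.0339) and SLC7A11 (0.428 ± 0.0410). The ranges of SLC38A2 and SLC1A5 overlapped there, and those of the other neighbours in this order did not. SLC6A9 (2.24 ± 0.0892 CPM per kb) stood above SLC7A6 (1.75 ± 0.311) in knockdown total RNA, the opposite of scramble total RNA. In knockdown polysomal RNA SLC1A5 (63.8 ± 14.4 CPM per kb) and SLC3A2 (60.6 ± 5.07) led with overlapping ranges, followed by SLC38A2 (25.0 ± 4.65) and SLC7A5 (17.3 ± 2.67). In scramble polysomal RNA SLC3A2 (73.7 ± 11.9 CPM per kb) and SLC1A5 (69.0 ± 7.95) led with overlapping ranges, ahead of SLC38A2 (30.0 ± 0.844) and SLC7A5 (21.6 ± 3.43). By mean, SLC7A1 stood above SLC38A1 and SLC1A4 in total RNA of either hairpin and below both in polysomal RNA of either hairpin.

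Of the light chains that pair with SLC3A2, SLC7A5 made up most of the mRNA: 93.6 ± 0.795% of the summed level per length of SLC7A5, SLC7A6 and SLC7A11 in knockdown total RNA and 92.0 ± 0.217% in scramble total RNA. SLC7A11 took 2.40 ± 0.0584% of that sum in knockdown and 1.25 ± 0.118% in scramble total RNA. The level per length of the heavy chain divided by that of these light chains was 0.745 and 0.691 in knockdown total libraries, against 0.706 and 0.720 in scramble total libraries. In polysome libraries the same quotient was 3.34 and 2.97 in knockdown cells, against 3.07 and 3.20 in scramble cells. The quotient thus overlapped between the hairpins in both fractions, and it was higher in all 4 polysome libraries than in all 4 total libraries.

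**Figure D1:**
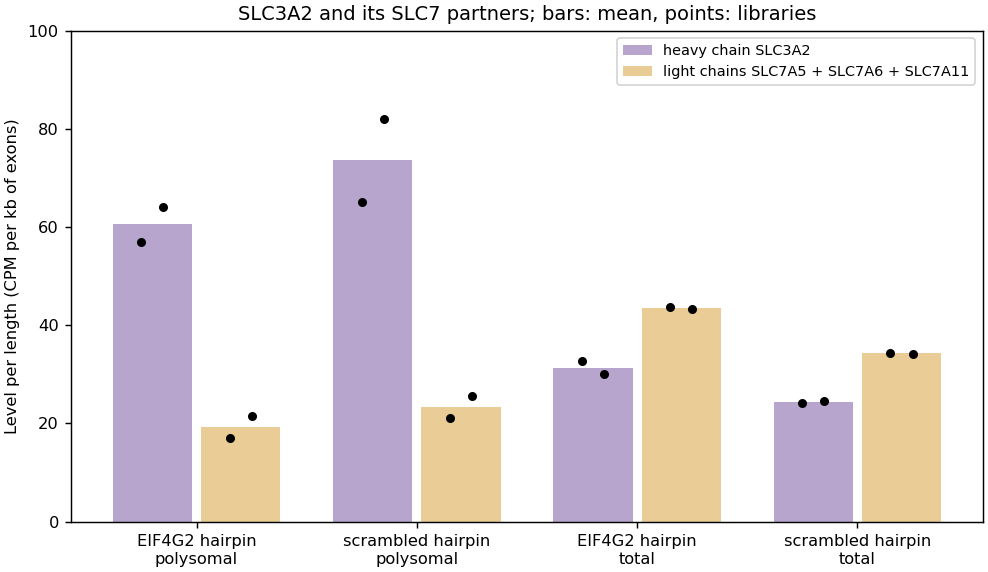
Level per length (CPM per kb of exons, vertical axis) of the heavy chain SLC3A2 and of its light chains SLC7A5, SLC7A6 and SLC7A11 summed, in the 4 groups. Bars are means and points are the 2 libraries of a group; the heavy chain exceeded the summed light chains in all 4 polysome libraries and lay below them in all 4 total libraries.

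In total RNA, transcripts of the cystine importer SLC7A11 and the glycine transporter SLC6A9 stood out as higher in knockdown cells, by 2.45-fold and 1.83-fold. The heavy chain SLC3A2, the light chain SLC7A5 and the glutamine exchanger SLC1A5 stood 1.28-fold, 1.30-fold and 1.23-fold higher. SLC7A6, SLC38A2 and SLC1A4 stood lower, at 0.751, 0.866 and 0.920 of the scramble level, and SLC7A1 and SLC38A1 overlapped between the hairpins. In all, 5 of the 10 genes had both knockdown libraries above both scramble libraries, where 24.8% of tested genes did, and 3 had both below, where 23.1% did. edgeR's quasi-likelihood test called 0 of the 10 and 0% of all tested genes (adjusted p under 0.05), with 4 of the 10 higher at an unadjusted p under 0.05, where 2.66% of tested genes were. By DESeq2, 0 of the 10 were called and 0.16% of tested genes, with no adjusted p for SLC7A11 and SLC6A9. Since this contrast was in view when the genes were chosen, nothing is read from these counts. In bulk libraries fewer cells of a kind and less RNA per cell cannot be told apart.

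SLC7A11 stood at 9.98 and 10.2 CPM in knockdown total libraries, from 318 and 311 counts, against 4.41 and 3.85 CPM in scramble total libraries, from 132 and 103 counts. The libraries did not overlap, and both knockdown libraries lay at about the same height. The fitted log2 fold change was 1.29 ± 0.31 (SE, n = 2 per group), and it ran from 1.19 to 1.39 over 15 other ways of processing. With no filter on low counts edgeR called 1 of the 10, SLC7A11, where 38 of 30065 genes were called. Because this contrast was in view when the gene was chosen, nothing is read from that call. In GRCh38 the gene occupies bases 138164097 to 138242349 of chromosome 4, minus strand. An antisense gene, SLC7A11-AS1, shares 9.0% of its exon length and had 0 to 6 counts per library.

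SLC6A9 stood at 11.2 and 11.9 CPM in knockdown total libraries, against 6.17 and 6.42 CPM in scramble total libraries. Both knockdown libraries were well above both scramble libraries, with a log2 fold change of 0.87 ± 0.22 (SE, n = 2 per group). The gene lies on chromosome 1, from 43991500 to 44031467 on the minus strand, and shares 7.8% of its exon length with CCDC24 on the other strand.

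SLC3A2 stood at 169.1 and 155.5 CPM in knockdown total libraries, against 125.3 and 127.7 CPM in scramble total libraries. SLC7A5 stood at 195.7 and 191.8 CPM in knockdown total libraries, against 149.9 and 149.2 CPM in scramble total libraries. Neither gene overlapped between the hairpins, and the log2 fold changes of heavy and light chain were 0.36 ± 0.16 and 0.37 ± 0.16 (SE). SLC3A2 lies on chromosome 11 from 62856102 to 62888875 on the plus strand, and SLC7A5 on chromosome 16 from 87830023 to 87869488 on the minus strand. The SLC7A5 pseudogenes SLC7A5P1 and SLC7A5P2 had 0 counts in all 8 libraries, and how reads shared with them were treated is not given.

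The third light chain, SLC7A6, went the other way, with 11.6 and 14.95 CPM in knockdown total libraries, against 17.1 and 18.3 CPM in scramble total libraries. The libraries did not overlap, but the knockdown pair was wider apart than the scramble pair (log2 fold change −0.41 ± 0.22, SE). SLC7A6 lies on chromosome 16 from 68264516 to 68301823 on the plus strand and shares 44.4% of its exon length with SLC7A6OS on the other strand, which had 115 to 256 counts per library. The strand setting of the counting was not given, so reads of these genes cannot be told apart.

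SLC1A5 stood at 191.7 and 175.5 CPM in knockdown total libraries, against 146.6 and 151.1 CPM in scramble total libraries (log2 fold change 0.30 ± 0.17, SE). Its relative SLC1A4 stood at 43.3 and 44.8 CPM in knockdown total libraries, against 47.8 and 47.9 CPM in scramble total libraries (−0.12 ± 0.15). Neither overlapped between the hairpins, and they lay on opposite sides of 0. SLC1A5 lies on chromosome 19 from 46774883 to 46788594 on the minus strand and shares 23.4% of its exon length with the antisense gene AC008622.2, so reads of that stretch cannot be told apart without strand. SLC1A4 lies on chromosome 2 from 64988477 to 65023865 on the plus strand.

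The sodium-coupled pair lay on opposite sides of 0 too. SLC38A2 stood at 240.3 and 278.3 CPM in knockdown total libraries, against 300.9 and 297.9 CPM in scramble total libraries (log2 fold change −0.21 ± 0.16, SE). SLC38A1 stood at 89.7 and 112.8 CPM in knockdown total libraries, against 92.7 and 88.7 CPM in scramble total libraries (0.16 ± 0.16), and the groups overlapped. The cationic amino acid transporter SLC7A1 overlapped as well, at 77.4 and 95.6 CPM in knockdown and 80.0 and 80.3 CPM in scramble total libraries (0.11 ± 0.17). SLC38A1 and SLC38A2 lie beside each other on the minus strand of chromosome 12, from 46183063 to 46270017 and from 46358189 to 46372867, and SLC7A1 lies on the minus strand of chromosome 13 from 29509410 to 29595688.

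Across the 10 genes in total RNA the median log2 fold change was 0.23, against 0.02 over all tested genes, with 7 above 0 where 52.8% of tested genes were. Against the scramble mean, the median of the 10 was 0.17 in knockdown total replicate 1 and 0.28 in knockdown total replicate 2. The count above 0 was 5 without knockdown total replicate 2 and 7 without each of the other libraries.

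**Figure D2:**
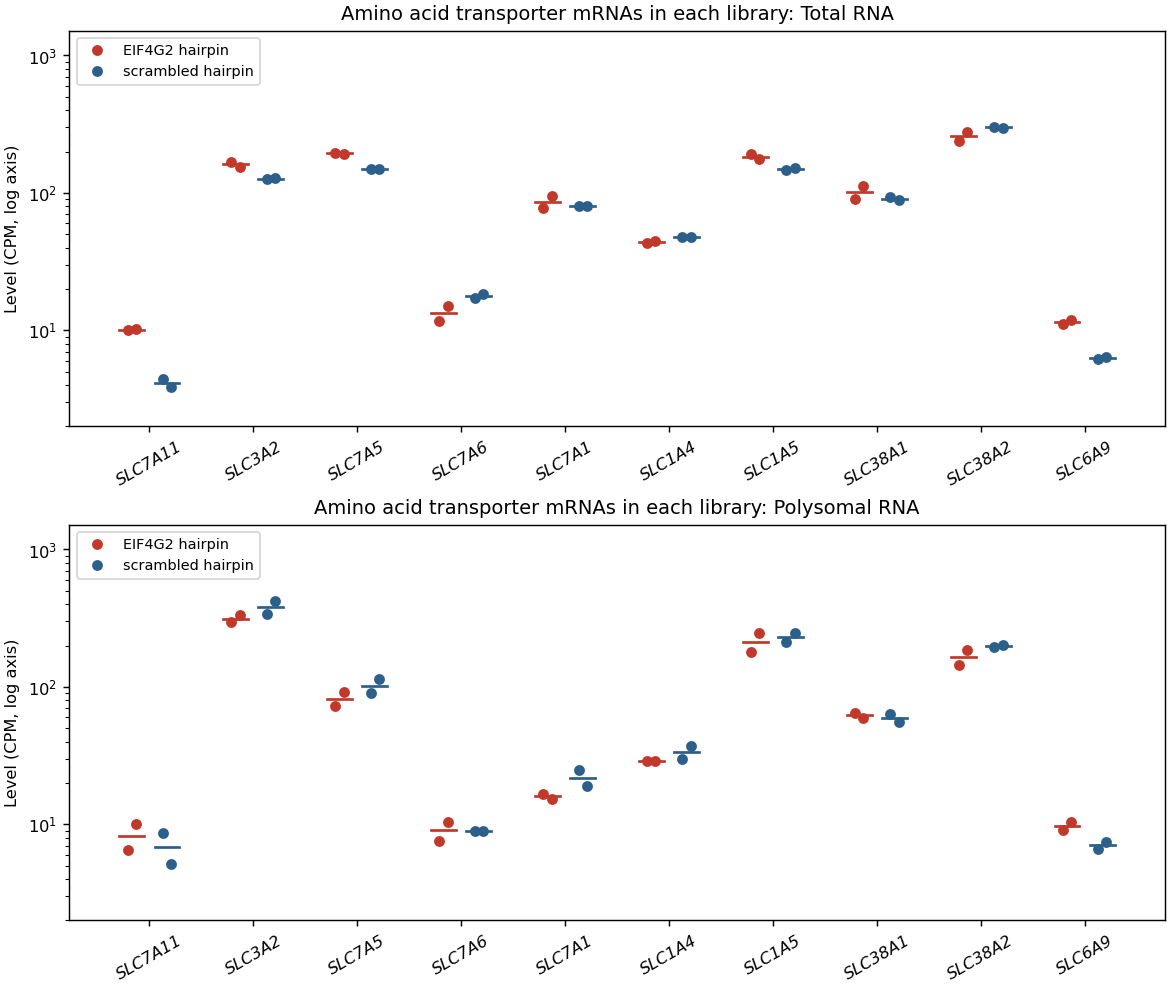
Level of each transporter mRNA (CPM, log axis) in each library of total RNA (upper panel) and polysomal RNA (lower panel), with knockdown left of scramble for each gene. Points are libraries and short lines are means of 2; SLC7A11 and SLC6A9 are clearly apart in total RNA, while SLC7A11 overlaps in polysomal RNA.

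In polysomal RNA, the mRNA loaded with several ribosomes, no transporter passed the test between the hairpins. SLC6A9 was the 1 transporter with both knockdown libraries above both scramble libraries, where 15.5% of tested genes were so placed. SLC3A2, SLC7A1, SLC1A4 and SLC38A2 had both knockdown libraries below both scramble libraries, where 18.5% of tested genes did, and the other 5 overlapped. Neither edgeR (adjusted p = 0.335 to 1, background 0.0123% of genes called) nor DESeq2 (adjusted p = 0.346 to 1, background 1.36%) called any of the 10. At an unadjusted p under 0.05 edgeR had 1 of the 10, SLC7A1 on the lower side, where 7.89% of tested genes lay.

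SLC7A11 stood at 6.54 and 10.0 CPM in knockdown polysome libraries, from 97 and 118 counts, against 8.61 and 5.16 CPM in scramble polysome libraries, from 159 and 87 counts. The groups interleaved, with a log2 fold change of 0.26 ± 0.31 (SE; edgeR adjusted p = 0.779) that turned to −0.14 without knockdown polysome replicate 2 and to −0.13 without scramble polysome replicate 2. The height seen in total RNA was thus not detectable in polysomal RNA at this spread.

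SLC6A9 stood at 9.11 and 10.4 CPM in knockdown polysome libraries, against 6.61 and 7.48 CPM in scramble polysome libraries. It kept its direction in both fractions, with a log2 fold change in polysomal RNA of 0.47 ± 0.23 (SE; edgeR adjusted p = 0.411).

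SLC3A2 stood at 295.5 and 332.6 CPM in knockdown polysome libraries, against 337.7 and 425.1 CPM in scramble polysome libraries (log2 fold change −0.28 ± 0.16, SE; edgeR adjusted p = 0.470). SLC7A5 stood at 73.2 and 91.2 CPM in knockdown polysome libraries, against 90.8 and 113.8 CPM in scramble polysome libraries (−0.32 ± 0.16, adjusted p = 0.430). Heavy and light chain thus had nearly the same fitted value in polysomal RNA as well, below 0 where both were above 0 in total RNA. SLC7A1 stood at 16.7 and 15.4 CPM in knockdown polysome libraries, against 24.8 and 18.9 CPM in scramble polysome libraries (−0.45 ± 0.18, adjusted p = 0.335). The SLC7A1 value ran from −0.70 to −0.26 with 1 library left out, and it was not the lowest of the 10 throughout: SLC7A5 lay below it without knockdown polysome replicate 2 (−0.54 against −0.46) and without scramble polysome replicate 1 (−0.49 against −0.26).

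SLC38A2 stood at 143.5 and 187.0 CPM in knockdown polysome libraries, against 194.4 and 202.3 CPM in scramble polysome libraries (log2 fold change −0.26 ± 0.16, SE). SLC1A4 stood at 28.81 and 29.03 CPM in knockdown polysome libraries, against 30.0 and 37.3 CPM in scramble polysome libraries (−0.22 ± 0.16). Both genes had their groups apart, by little for SLC1A4. SLC1A5 stood at 178.7 and 246.6 CPM in knockdown polysome libraries, against 211.2 and 248.6 CPM in scramble polysome libraries (−0.11 ± 0.17). SLC38A1 stood at 65.0 and 59.2 CPM in knockdown polysome libraries, against 63.9 and 55.3 CPM in scramble polysome libraries (0.06 ± 0.16). SLC7A6 stood at 7.62 and 10.4 CPM in knockdown polysome libraries, against 8.99 and 8.91 CPM in scramble polysome libraries (0.01 ± 0.24). All 3 overlapped between the hairpins, and the sign of these small values changed in some of the other ways of processing.

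The median of the 10 genes was −0.17, against −0.01 over all tested genes, with 4 above 0 where 45.9% of tested genes were. This count was 2 without knockdown polysome replicate 2, 1 without scramble polysome replicate 2 and 3 or 4 without each of the other libraries.

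The ratio of polysomal to total RNA asks whether the hairpins differ more in one fraction than in the other. Its log2 difference between knockdown and scramble was below 0 for 9 of the 10 transporters, where 44.1% of tested genes lay above 0, with a median of −0.41 against −0.07 over all tested genes. SLC7A11 had −1.03 ± 0.44 (SE), with −0.62 without scramble polysome replicate 1 and −1.42 without knockdown polysome replicate 2. SLC7A5 had −0.69 ± 0.23, SLC3A2 −0.64 ± 0.22, SLC7A1 −0.56 ± 0.25, SLC1A5 −0.42 ± 0.25 and SLC6A9 −0.40 ± 0.32. SLC1A4, SLC38A1 and SLC38A2 lay at −0.10 ± 0.22, −0.10 ± 0.22 and −0.06 ± 0.23, and SLC7A6 at 0.42 ± 0.33.

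None of the 10 passed the test of the ratio. edgeR's adjusted p ran from 0.776 to 0.999 with 0% of all genes called, and DESeq2's from 0.586 to 0.999 with 0.0246% called. At an unadjusted p under 0.05 edgeR had 4 of the 10 on the lower side, SLC7A11, SLC3A2, SLC7A5 and SLC7A1, where 4.33% of tested genes lay. That count was 1 without scramble total replicate 1 and 1 without scramble total replicate 2. It was 2 without knockdown total replicate 2, knockdown polysome replicate 1 or scramble polysome replicate 1. With 9 below 0 over all libraries, 3 genes lay above 0 without knockdown total replicate 2, where SLC38A1 and SLC38A2 changed side.

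Since the total libraries enter this ratio and were in view when the genes were chosen, no support is drawn from the 9 of 10. In single libraries set against the scramble mean, the median of the 10 in polysomal RNA was −0.30 in knockdown replicate 1 and −0.05 in knockdown replicate 2, with 2 and 4 of the 10 above 0. The summed level of the 10 mRNAs was 1040 and 1091 CPM in knockdown total libraries, against 970.8 and 971.4 CPM in scramble total libraries. In polysome libraries the sum was 824.7 and 991.9 CPM in knockdown cells, against 976.9 and 1123 CPM in scramble cells, and there the groups overlapped.

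**Figure D3:**
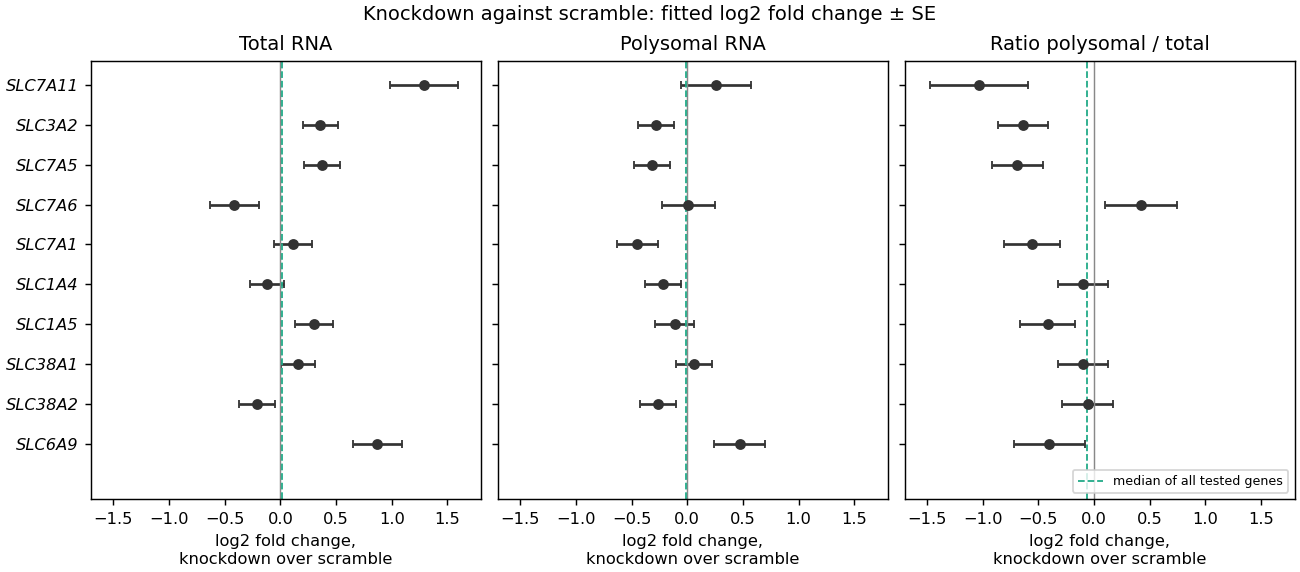
Fitted log2 fold change of knockdown over scramble (horizontal axis) for each transporter in both fractions and in the ratio of polysomal to total RNA. Points are edgeR values, bars are SE and the dashed line is the median of all tested genes; SLC7A11 lies at 1.29, 0.26 and −1.03, and SLC7A6 is the 1 gene above 0 in the ratio.

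Within cells of 1 hairpin, the transporters differed widely in their level in polysomal relative to total RNA. This is a relative level and not the share of an mRNA held in polysomes. Relative to the TMM baseline the heavy chain SLC3A2 was enriched in polysomal RNA in cells of both hairpins, though not in knockdown cells under library totals alone, while SLC7A1 was the most depleted of the 10 in both, and the light chain SLC7A5 lay on the lower side beside its enriched partner. These comparisons share no library between the hairpins. TMM scaling sets their zero: with library totals alone the median of all tested genes moved by −1.05 in knockdown cells and by −0.995 in scramble cells, so values are also given relative to the median of all tested genes, which moved by at most 0.014 (log2) between the scalings tried.

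In knockdown cells edgeR called 1 transporter higher in polysomal than in total RNA, where 28.9% of tested genes were called higher, and 5 lower, where 34.1% were. DESeq2 called 1 higher and 6 lower, with 62.4% of tested genes called. The knockdown libraries of the fractions did not overlap for 1 transporter on the higher side, where 36.6% of tested genes lay, and for 7 on the lower side, where 44.9% lay. In scramble cells edgeR called 2 higher, where 29.7% of tested genes were called higher, and 6 lower, where 33.7% were, and DESeq2 called as many in each direction, with 62.8% of tested genes called. The scramble libraries of the fractions did not overlap for 4 transporters on the higher side, where 38.8% of tested genes lay, and for 6 on the lower side, where 46.1% lay. With scramble total replicate 1 or scramble total replicate 2 left out the scramble count was 5 in place of 8. Library totals alone turned these calls to 0 higher and 9 lower in knockdown cells and to 1 higher and 8 lower in scramble cells, and those of all genes to 1777 higher and 9218 lower in knockdown cells (4690 and 5539 with TMM) and to 2134 higher and 8852 lower in scramble cells (4827 and 5466 with TMM).

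SLC3A2 had a log2 fold change of polysomal over total RNA of 0.95 ± 0.16 in knockdown cells (SE; edgeR adjusted p = 0.00035) and of 1.59 ± 0.16 in scramble cells (adjusted p = 9.0e-06). Relative to the median of all tested genes these were 1.12 and 1.76. With library totals alone the value was −0.11 in knockdown cells and 0.59 in scramble cells, while the values relative to the median were 1.11 and 1.75. Of all tested genes, 74.4% in knockdown cells and 84.3% in scramble cells had a lower value than SLC3A2.

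SLC7A1 had −2.43 ± 0.19 in knockdown cells (SE; edgeR adjusted p = 1.8e-06) and −1.87 ± 0.18 in scramble cells (adjusted p = 6.3e-06). On the TMM scale its level in polysomal RNA was thus 0.185 of that in total RNA in knockdown cells and 0.273 in scramble cells. Of tested genes, 14.2% and 18.4% lay below it. Relative to the median of all tested genes it lay at −2.27 and −1.71.

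SLC7A5 had −1.24 ± 0.16 in knockdown cells (SE; edgeR adjusted p = 6.5e-05) and −0.55 ± 0.16 in scramble cells (adjusted p = 0.0122). The scramble call was lost without scramble total replicate 1 (adjusted p = 0.0595) and without scramble total replicate 2 (adjusted p = 0.0542). Relative to the median SLC7A5 lay at −1.07 in knockdown cells and −0.38 in scramble cells. The other 2 light chains did not pass in both hairpins. SLC7A6 had −0.56 ± 0.23 in knockdown cells (adjusted p = 0.0545) and −0.98 ± 0.23 in scramble cells (adjusted p = 0.00322), or −0.40 and −0.82 relative to the median. The knockdown value of SLC7A6 was called under 9 of 15 other ways of processing, so its side of the threshold was not stable. SLC7A11 had −0.29 ± 0.31 in knockdown cells (adjusted p = 0.422) and 0.74 ± 0.31 in scramble cells (adjusted p = 0.0589), or −0.13 and 0.91 relative to the median. The scramble value of SLC7A11 was 0.22 without scramble polysome replicate 1 (adjusted p = 0.600) and 1.00 without scramble polysome replicate 2 (adjusted p = 0.0229); over 15 other ways of processing the adjusted p ran from 0.0229 to 0.600.

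SLC38A1 and SLC38A2, which lie side by side on chromosome 12, had close values: −0.70 ± 0.16 and −0.65 ± 0.16 in knockdown cells (SE; edgeR adjusted p = 0.00268 and 0.00514), and −0.61 ± 0.16 and −0.59 ± 0.16 in scramble cells (adjusted p = 0.00627 and 0.00823). SLC1A4 had −0.61 ± 0.16 in knockdown cells (adjusted p = 0.00645) and −0.51 ± 0.16 in scramble cells (adjusted p = 0.0153), the second lost without scramble total replicate 1 (0.0816) or 2 (0.0804). Relative to the median SLC38A1, SLC38A2 and SLC1A4 lay at −0.54, −0.49 and −0.44 in knockdown cells and at −0.44, −0.43 and −0.34 in scramble cells. These 3 genes of sodium-coupled or exchange transport thus fell in polysomal relative to total RNA in cells of both hairpins. Many genes lay lower still: 38.8%, 39.9% and 40.8% of tested genes in knockdown cells and 40.4%, 40.6% and 42.4% in scramble cells.

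SLC1A5, in contrast to SLC1A4, lay above the median of all genes by 0.38 in knockdown cells and by 0.79 in scramble cells. Its log2 fold change was 0.21 ± 0.17 in knockdown cells (SE; edgeR adjusted p = 0.311) and 0.63 ± 0.17 in scramble cells (adjusted p = 0.00905), but with library totals alone these turned to −0.85 and −0.38. The scramble call was also lost without scramble total replicate 1 (0.0808), scramble total replicate 2 (0.0642) or scramble polysome replicate 2 (0.0886). SLC6A9 had −0.24 ± 0.22 in knockdown cells (adjusted p = 0.367) and 0.16 ± 0.23 in scramble cells (adjusted p = 0.556), or −0.08 and 0.33 relative to the median, and neither passed.

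**Figure D4:**
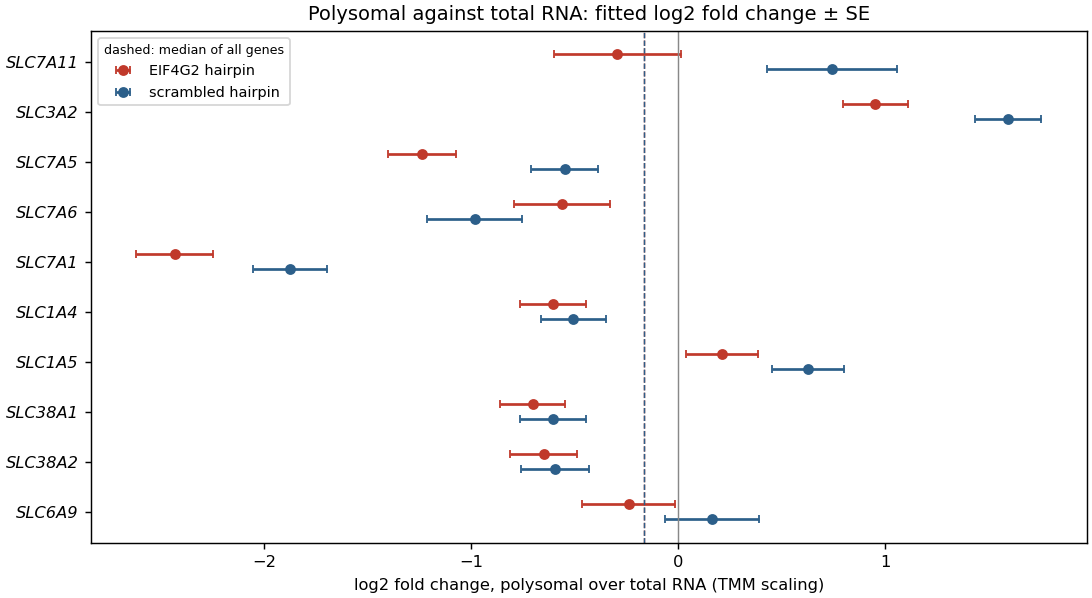
Fitted log2 fold change of polysomal over total RNA (horizontal axis, TMM scaling) for each transporter in cells with the EIF4G2 hairpin and in cells with the scrambled hairpin. Points are edgeR values, bars are SE and dashed lines are the medians of all tested genes; SLC3A2 lies highest in both (0.95 and 1.59, with −0.11 in knockdown cells under library totals alone) and SLC7A1 lowest (−2.43 and −1.87).

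ATF4 itself, the factor that drives these transporters under stress, stood at 339.0 and 269.8 CPM in knockdown total libraries, against 213.7 and 220.5 CPM in scramble total libraries (log2 fold change 0.49 ± 0.17, SE). In polysome libraries ATF4 stood at 1316.5 and 1361 CPM in knockdown cells, against 1001 and 999.2 CPM in scramble cells (0.42 ± 0.17; edgeR adjusted p = 0.323). The libraries did not overlap in either fraction. On this higher side lay 24.8% of tested genes in total RNA and 15.5% in polysomal RNA. Neither edgeR nor DESeq2 called ATF4 between the hairpins in either fraction (DESeq2 adjusted p = 0.225 in total and 0.135 in polysomal RNA). The difference in the ratio was −0.07 ± 0.24. ATF4 mRNA was enriched in polysomal RNA by 2.14 in knockdown and 2.20 in scramble cells on the log2 scale (edgeR adjusted p = 2.5e-06 and 2.1e-06).

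Of 22 regulators of the stress response, 13 lay above 0 in total RNA (median 0.08), where 52.8% of all tested genes did, and edgeR and DESeq2 called 0 of them in either fraction or the ratio, with 2 higher at an unadjusted p under 0.05 in total RNA, where 2.66% of tested genes were. In polysomal RNA edgeR had 1 higher and 2 lower at that threshold, where 2152 of 16228 tested genes lay in either direction. CEBPB, a dimer partner of ATF4, had 0.52 ± 0.15 (SE) in total RNA and 0.04 ± 0.15 in polysomal RNA. ATF5, a relative of ATF4, had 0.39 ± 0.18 and 0.37 ± 0.18. GCN1 and NUPR1, named from polysomal RNA, lay lower there by fitted value, at −0.58 ± 0.23 and −1.13 ± 0.47. NUPR1 overlapped between the hairpins, at 3.78 and 8.83 CPM in knockdown and 19.6 and 7.78 CPM in scramble polysome libraries. In total RNA GCN1 and NUPR1 had −0.20 ± 0.20 and −0.16 ± 0.59.

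Of 29 tested ATF4 targets other than transporters, 24 lay above 0 in total RNA (median 0.21), where 52.8% of all tested genes did. Of these 29, 17 had both knockdown libraries above both scramble libraries, where 24.8% of tested genes did, and 1 had both below, where 23.1% did. edgeR called 0 of them, with 4 higher at an unadjusted p under 0.05, where 2.66% of tested genes were. DESeq2 called 1, VEGFA (adjusted p = 0.0021), where 0.16% of tested genes were called. In polysomal RNA 15 of the 29 lay above 0 (median 0.04), where 45.9% of tested genes did. There 3 had both knockdown libraries above both scramble libraries, where 15.5% of tested genes did, and 6 had both below, where 18.5% did. VEGFA, an angiogenic growth factor, had 0.89 ± 0.16 (SE) in total RNA and 0.06 ± 0.17 in polysomal RNA, CHAC1, which degrades glutathione, 0.92 ± 0.22 and −0.23 ± 0.20, and PHGDH, the first enzyme of serine synthesis, 0.48 ± 0.14 and −0.06 ± 0.14. These 3 were named for their small p in total RNA. The 3 named in the same way from polysomal RNA were GPT2, a mitochondrial alanine aminotransferase, with 0.23 ± 0.16 in total and 0.50 ± 0.16 in polysomal RNA, AARS1, the alanyl-tRNA synthetase, with −0.02 ± 0.14 and −0.40 ± 0.15, and CREBRF with −0.44 ± 0.41 and −1.92 ± 0.51. In the ratio 22 of the 29 lay below 0 (median −0.24), where 44.1% of tested genes lay above 0, with 0 called by edgeR or DESeq2 and 4 lower at an unadjusted p under 0.05, where 4.33% of tested genes were. This list, too, was chosen with earlier results known.

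Of 26 glutathione and NRF2 genes, 15 were above 0 in total RNA (median 0.05), and of 34 tested genes of amino acid sensing by mTORC1, 19 were (median 0.04), beside 52.8% of all tested genes. edgeR and DESeq2 called 0 of either list in either fraction or the ratio. At an unadjusted p under 0.05 edgeR had 0 and 1 in total RNA, where 598 of 16228 tested genes lay in either direction. NQO1, an NRF2 target, had 0.40 ± 0.23 (SE) in total RNA, and FTL, the ferritin light chain, 0.40 ± 0.23. EIF4EBP1, a repressor of cap-dependent translation that mTORC1 inactivates and that ATF4 can induce, had 0.42 ± 0.21. MLST8, a subunit of mTORC1, had 0.30 ± 0.15, and LAMTOR1, the 1 sensing gene under that threshold, 0.47 ± 0.20. These genes were named for their small p in total RNA. Those named from polysomal RNA went both ways there. GGT7 (−0.89 ± 0.25), FNIP2 (−0.87 ± 0.26) and DEPDC5 (−0.80 ± 0.30) lay lower. FTL (0.58 ± 0.23), NFE2L2 (0.34 ± 0.18) and EIF4EBP2 (0.44 ± 0.14) lay higher by fitted value. NFE2L2 overlapped between the hairpins, at 146.3 and 113.6 CPM in knockdown and 116.7 and 88.7 CPM in scramble polysome libraries.

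Among 8894 genes with a mean log2 CPM of at least 3, the levels most like those of SLC7A11 over the 8 libraries, after removing each gene's mean within each fraction, were those of PGS1 (Pearson r = 0.97), RABEPK (0.95), FAM214B (0.95), MORF4L1 (0.95) and MIR31HG (0.94). These 8 points share their libraries and the hairpin, so the likeness is a description.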

How the data were processed

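Polysome-associated and total RNA of IHCF cells were sequenced, and the authors deposited 1 table of whole-number counts per gene symbol for 8 libraries. Per the submitters' processing notes, the tools were bcl2fastq 2.19.0, Trimmomatic 0.36, HISAT2 2.1.0, Subread 2.0.1 with featureCounts, R 4.1.2 and DESeq2, with builds named hg38 and GRCh38. Strand setting and annotation are not given in the sources used here. Deposited counts were matched to groups by column name.

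Counts were fitted with edgeR 4.0.16 in R 4.3.3 (quasi-likelihood, robust, TMM factors, filterByExpr, 1 mean for each of 4 groups over all 8 libraries), with Benjamini-Hochberg adjustment over 16228 genes and a threshold of 0.05. SE was taken as the size of the log2 fold change over the root of its F statistic. CPM used the library total times its TMM factor, and levels per kb use exon unions of GENCODE on GRCh38. DESeq2 1.42.0, other scalings, filters, a replicate block and leaving out each library were alternatives. The comparisons of hairpins in total and in polysomal RNA were tested on simulated data with the same baseline means in both fractions. The ratio and the comparisons of fractions were not tested in this way. Counts of the smallest genes limit precision: SLC7A11 had 87 to 318 per library.

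The 10 members and all gene lists were chosen with earlier results of these data known. Beyond the members, EIF4G2 and ATF4, genes were named by a rule: in each list, the 3 with the smallest unadjusted p in total and the 3 in polysomal RNA, of which a few are given here, and the 5 most like SLC7A11.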

Additional observations from a re-analysis of the deposited data

How the results depend on the processing

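Of 740 fold changes of the transporters under the alternatives, 25 changed sign. Leaving out the hairpins in total RNA, 12 of the values that kept their sign gained a call and 7 lost one. Calls gained or lost by values that changed sign are not in these counts. In total RNA the count of called transporters was 1 with no filter on low counts in place of 0, in a contrast that was in view when the genes were chosen. SLC7A1 and SLC38A1 in total RNA turned to −0.05 and −0.02 without knockdown total replicate 2. In scramble cells, polysomal against total RNA, the count of called transporters ran from 5 to 8 when 1 library was left out. SLC7A6 in knockdown cells, polysomal against total, was called under 9 of 15 alternatives, with adjusted p from 0.00015 to 0.278.

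Signs that changed between the hairpins were those of small values. In polysomal RNA SLC7A6 had −0.095 and SLC38A1 −0.039 with library totals alone, and SLC7A6 had −0.043 with no filter. With 1 library left out, SLC7A11 ran from −0.14 to 0.65, SLC7A6 from −0.29 to 0.19, SLC1A5 from −0.42 to 0.069 and SLC38A1 from −0.11 to 0.15. In the ratio SLC1A4 ran from −0.25 to 0.017, SLC38A1 from −0.25 to 0.076 and SLC38A2 from −0.30 to 0.11. Polysomal against total RNA with library totals alone gave −0.11 for SLC3A2 and −0.85 for SLC1A5 in knockdown cells, and −0.25 for SLC7A11, −0.38 for SLC1A5 and −0.84 for SLC6A9 in scramble cells. SLC1A5 in knockdown cells ran from −0.16 to 0.33 with 1 library left out. The cause of the changes with 1 library left out was not tested.

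Over all genes, the count called between the hairpins was 0 in total RNA (26 by DESeq2, 38 with no filter, 10 from the 4 libraries alone), 2 in polysomal RNA (221 by DESeq2, 502 with no filter, 1 with library totals, 0 to 183 with 1 library left out, the 183 without knockdown polysome replicate 2) and 0 in the ratio (4 by DESeq2, 64 with no filter).

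Deviations of same-numbered libraries were barely correlated over all tested genes (correlations of −0.092 to 0.026). Whether same-numbered libraries came from the same culture is not stated. These correlations cannot decide it, because spread between single libraries can hide a shared origin. With the replicate number as a block, 0 transporters were called between the hairpins in total RNA, polysomal RNA and the ratio, 6 between fractions in knockdown cells and 8 in scramble cells, as without it, and SLC7A6 in polysomal RNA had −0.0046. In knockdown and scramble polysome libraries the summed counts were 215 and 246 for SLC7A11, 236 and 316 for SLC7A6, and 258 and 248 for SLC6A9, which limits the precision of their values.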

Other observations

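Other amino acid transporters of the same or related gene families were listed beside the 10. Of 41 listed, 21 passed the count filter, and 9 of these lay above 0 in total RNA (median −0.07), where 52.8% of all tested genes did. Of the 21, 4 had both knockdown libraries above both scramble libraries, where 24.8% of tested genes did, and 8 had both below, where 23.1% did. edgeR called 0 of them between the hairpins in total RNA, polysomal RNA or their ratio, as did DESeq2. At an unadjusted p under 0.05 edgeR had 0 in total RNA, where 598 of 16228 tested genes lay in either direction. On the lower side it had 2 in polysomal RNA, where 7.89% of tested genes lay, and 2 in the ratio, where 4.33% lay. The 2 in polysomal RNA had few counts: SLC16A10 0 and 0 in knockdown against 11 and 3 in scramble libraries, and SLC1A3 0 and 4 against 23 and 13. SLC7A2 (CAT2), a cationic amino acid transporter related to SLC7A1, stood at 10.2 and 13.0 CPM in knockdown total libraries, against 18.42 and 14.97 CPM in scramble total libraries (log2 fold change −0.53 ± 0.29, SE). The taurine transporter SLC6A6 stood at 28.8 and 37.0 CPM in knockdown total libraries, against 41.6 and 38.2 CPM in scramble total libraries (−0.28 ± 0.19). Both were lower in polysomal than in total RNA, by −2.65 and −2.26 in knockdown cells on the log2 scale (edgeR adjusted p = 5.9e-05 and 6.4e-06). SLC43A3, also named for its small p in total RNA, went the other way between the hairpins. It stood at 24.5 and 26.2 CPM in knockdown total libraries, against 21.0 and 18.9 CPM in scramble total libraries (0.35 ± 0.26).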
